A study of Rattus norvegicus with 14 samples.

Results

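Testicular macrophage genes were followed in fetal rat testes after maternal exposure to the plasticizer dicyclohexyl phthalate (DCHP). The 9 genes were Csf1r, Cd68, Cd163, Mrc1, Ptprc, Aif1, C1qa, Adgre1 and Lyz2, taken by name from a count table of 18174 genes. All 9 were in the table, and 8 had enough counts to be tested. Pregnant Harlan Sprague Dawley dams were dosed by oral gavage from gestational day 14 to 18, and fetal testes were taken on day 18 and pooled within a litter. The corn oil vehicle and the DCHP doses of 100, 300 and 600 mg/kg/day had 3 litters each, and 900 mg/kg/day had 2. RNA was measured with TempO-Seq, a targeted assay that joins 2 neighbouring probes when both sit on the same transcript and counts the joined products by sequencing. Each of the 14 libraries therefore stands for the pooled testes of 1 litter, and the litter was the unit of replication. Levels are CPM, each count relative to its library's scaled total, and each gene was compared with itself only, because probes differ in efficiency.

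Testicular macrophages are tissue-resident phagocytes that lie in the interstitium beside Leydig cells and blood vessels. They settle in the testis during fetal life, depend on signalling through the receptor encoded by Csf1r, and clear dying cells and debris. In the mouse they are known to take part in shaping the vessels and cords of the fetal testis, and in the adult rat they exchange signals with steroid-producing Leydig cells. In whole testis RNA, fewer cells of a type and less RNA per cell cannot be told apart.

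Macrophage genes are known to be driven by the transcription factor PU.1, encoded by Spi1, which binds purine-rich sites around a GGAA core. The promoters of Cd68, Mrc1 and Adgre1 are shown because of their levels across the 14 libraries. Pearson's r of log2 CPM was 0.82 between Cd68 and Mrc1. For Adgre1 it was weaker and negative, at -0.32 with Cd68 and -0.44 with Mrc1. Each promoter runs from 250 bases before to 50 after the gene start, from RefSeq on GRCr8. Capitals mark GAGGAA or its reverse complement TTCCTC, searched on both strands. The Cd68 promoter is at chr10:54882392-54882691 on the minus strand, the Mrc1 promoter at chr17:82157475-82157774 on the plus strand, and the Adgre1 promoter at chr9:2329190-2329489 on the plus strand.
Cd68: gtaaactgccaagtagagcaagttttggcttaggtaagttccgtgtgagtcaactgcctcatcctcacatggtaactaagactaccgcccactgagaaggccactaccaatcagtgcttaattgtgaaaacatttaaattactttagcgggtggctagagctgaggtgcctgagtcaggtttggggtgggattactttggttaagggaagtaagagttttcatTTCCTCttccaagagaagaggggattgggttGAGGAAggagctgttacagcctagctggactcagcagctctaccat
Mrc1: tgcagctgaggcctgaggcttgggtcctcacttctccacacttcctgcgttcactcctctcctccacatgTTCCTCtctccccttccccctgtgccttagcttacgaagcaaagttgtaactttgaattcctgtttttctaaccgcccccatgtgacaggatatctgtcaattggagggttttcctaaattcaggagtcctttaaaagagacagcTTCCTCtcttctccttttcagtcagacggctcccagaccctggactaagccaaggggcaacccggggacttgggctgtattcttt
Adgre1: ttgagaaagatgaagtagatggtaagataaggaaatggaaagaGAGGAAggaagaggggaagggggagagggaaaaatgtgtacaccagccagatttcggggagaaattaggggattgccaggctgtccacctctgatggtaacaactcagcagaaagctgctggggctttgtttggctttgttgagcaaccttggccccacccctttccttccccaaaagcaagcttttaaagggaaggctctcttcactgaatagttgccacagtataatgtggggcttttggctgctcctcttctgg
Counted from the first base of the gene as position 1, Cd68 held the motif at positions -27 to -22 and 5 to 10. Mrc1 held it at positions -180 to -175 and -35 to -30, and Adgre1 at positions -207 to -202. Promoters of 8 of the 9 genes were in the RefSeq table, Aif1 being the one without an entry. GAGGAA on either strand was in 6 of these 8 and in 27.6% of all 33469 promoters. The longer PU.1 site GAGGAAGT, which contains the shorter motif, was in 0 of 8 and in 2.42% of all promoters. The C/EBP palindrome TTGCGCAA was in 0 of 8 and in 0.17% of all. These matches describe letters in a window, not binding.

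All 9 genes were detected, most of them with few counts. Libraries held 5558873 to 11272861 estimated counts, with the lowest total in a 600 mg/kg/day litter and the highest in a 900 mg/kg/day litter. Aif1 had 94 to 214 counts per library and Mrc1 51 to 142. Lyz2 had 22 to 71 counts and Cd68 12 to 60. Csf1r had 4 to 20 counts, C1qa 2 to 23, Adgre1 2 to 13 and Ptprc 1 to 19. Cd163 had 0 to 10 counts, with none in 2 litters, and was not tested. The general leukocyte marker and several defining macrophage markers were therefore close to the limit of the assay. On the first principal component of all tested genes, which held 36.1% of the variance, vehicle litter 1 and 100 mg/kg/day litter 1 lay with both 900 mg/kg/day litters, apart from the other litters of their groups. Correlations between libraries of a group ranged from 0.931 to 0.983, and no pair of libraries was identical.

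None of the 8 tested macrophage genes passed the test at any dose, between the highest doses, over all groups or along dose. With edgeR's quasi-likelihood test and Benjamini-Hochberg adjustment over 12719 genes, 0 of 8 passed at 100 mg/kg/day against vehicle (0% of all tested genes passed) and 0 of 8 at 300 (0.0472%). At 600 mg/kg/day 0 of 8 passed (0.220%), and at 900 0 of 8 (0.252%). Between 900 and 600 mg/kg/day 0 of 8 passed (0%), among the 5 groups 0 of 8 (0.157%), and in the linear trend over dose 0 of 8 (0.425%). Since so few genes passed in all, a count of 0 is near the background and says little of these genes in particular. The lowest adjusted p of a macrophage gene was 0.9999 at 100, 0.9995 at 300, 0.9505 at 600 and 0.8517 at 900 mg/kg/day, and 0.5081 between 900 and 600. At an unadjusted p under 0.05 there was 1 gene of 8 at 100 mg/kg/day, Lyz2, beside 3.4% of all tested genes, and 1 of 8 at 600, Cd68, beside 4.79%, and none in the other comparisons. DESeq2 called none of them in the 7 comparisons, but at 600 mg/kg/day it gave an adjusted p for 4 of the 8 only, none for Ptprc, C1qa, Csf1r and Adgre1.

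The median log2 fold change of the 8 genes against vehicle was 0.12 at 100, 0.39 at 300, 0.14 at 600 and 0.11 at 900 mg/kg/day, beside 0.01, -0.02, -0.02 and 0.02 over all tested genes. At 300 mg/kg/day 7 of the 8 had a fold change above 0, and at each other dose 5 of 8. Of all tested genes 52.3%, 47.1%, 46.8% and 53.1% were above 0 at 100, 300, 600 and 900 mg/kg/day. Each dose was set against the same 3 vehicle litters, so these medians are not independent of each other. The lack of overlap in CPM between litters was also counted. At 100 mg/kg/day 0 of 8 genes had all litters on one side of all vehicle litters, beside 5.98% of tested genes. At 300 there were 2 of 8, Mrc1 and Ptprc, both higher, beside 9.34%. At 600 there were 3 of 8, Cd68, Mrc1 and Ptprc, all higher, beside 11.0%, and at 900 0 of 8, beside 19.2%. Between 900 and 600 mg/kg/day 3 genes were lower, Cd68, Mrc1 and Ptprc, and 1 was higher, Lyz2, which is a share near the 46.7% of all tested genes.

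**Figure D1:**
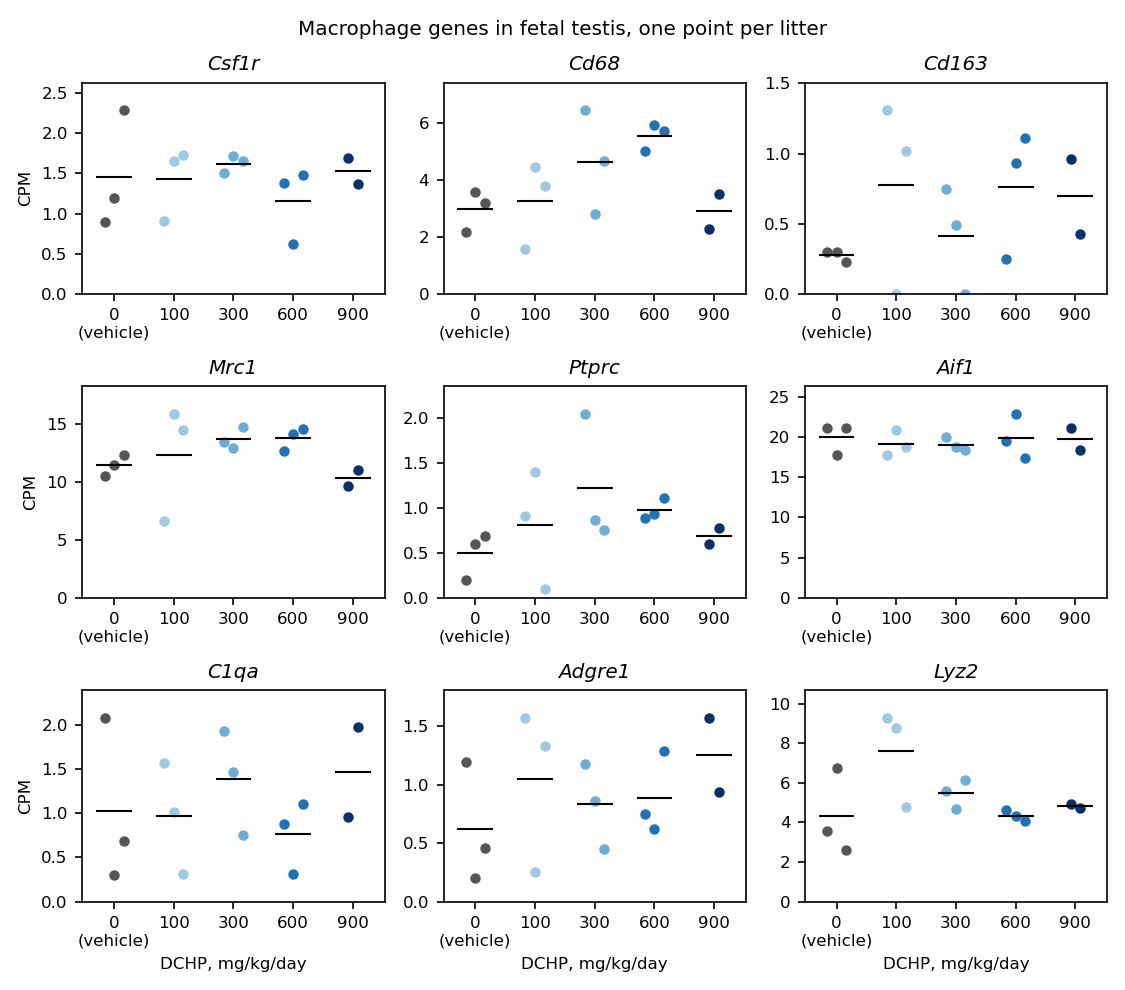
CPM of each of the 9 macrophage genes (vertical axis, from 0, own scale for each gene) by dose in mg/kg/day (horizontal axis, vehicle at 0). Each point is 1 litter and each bar the group mean. Aif1 lay between 17.38 and 22.85 CPM in every litter, while Cd68 had its highest group mean at 600 mg/kg/day and lay in the vehicle range at 900.

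The receptor for colony-stimulating factor 1, Csf1r, at chr18:54546659-54590416 on the plus strand of rn7, is needed for the survival of most tissue macrophages. Csf1r had 1.69 and 1.37 CPM at 900 mg/kg/day, against 0.89, 1.19 and 2.29 CPM in vehicle litters. The vehicle litters spanned a wider range than the 900 mg/kg/day litters and enclosed both of them. Csf1r had a log2 fold change of 0.07 ± 0.48 (SE), with a 95% interval from -0.97 to 1.12 (adjusted p = 0.9717). At 600 mg/kg/day Csf1r had 1.38, 0.62 and 1.48 CPM, the lowest group mean of this gene, and overlapped vehicle (log2 fold change -0.32 ± 0.46, adjusted p = 0.9505). Without vehicle litter 3 this value was 0.15. Group means ran from 1.16 CPM at 600 to 1.62 CPM at 300 mg/kg/day, and no neighbours in that order were apart beyond their spread.

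Ptprc encodes CD45, the phosphatase carried by leukocytes in general, at chr13:49596193-49708693 on the minus strand. At 300 mg/kg/day it had 2.04, 0.86 and 0.75 CPM, and at 600 mg/kg/day 0.88, 0.93 and 1.11 CPM, against 0.20, 0.60 and 0.69 CPM in vehicle litters. All litters of both doses were above all vehicle litters in CPM. The raw counts overlapped, with 19, 7 and 5 at 300 mg/kg/day and 7, 6 and 6 at 600, against 2, 6 and 6 in vehicle litters, so the lack of overlap rests on the scaling to library totals. Its log2 fold change was 1.32 ± 0.73 at 300 mg/kg/day (adjusted p = 0.9995) and 0.96 ± 0.76 at 600 (adjusted p = 0.9505). It had 0.60 and 0.77 CPM at 900 mg/kg/day and overlapped vehicle. At 100 mg/kg/day Ptprc ran from 0.10 to 1.40 CPM within the group. The granulocyte and mast cell markers described below summed to 11.1 ± 0.812 CPM at 300 mg/kg/day and 5.97 ± 1.17 CPM in vehicle litters (SD, n = 3 each), also without overlap between litters. At 600 mg/kg/day they summed to 6.50, 7.62 and 5.55 CPM, overlapping vehicle. Their part in the Ptprc values was not tested.

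Cd68 encodes macrosialin, a lysosomal glycoprotein recognised by the rat macrophage antibody ED1, at chr10:54381815-54383698 on the minus strand. At 600 mg/kg/day it had 5.00, 5.91 and 5.73 CPM, against 2.18, 3.58 and 3.20 CPM in vehicle litters. The groups did not overlap in CPM, and the 600 mg/kg/day litters lay close together. The raw counts overlapped, at 40, 38 and 31 against 22, 36 and 28 in vehicle litters. The lack of overlap thus rests on the scaling to library totals. Cd68 had a log2 fold change of 0.89 ± 0.38, a fold of 1.85 with a 95% interval from 1.04 to 3.27 (unadjusted p = 0.0367, adjusted p = 0.9505). At 300 mg/kg/day the litters had 6.45, 2.82 and 4.65 CPM and at 100 mg/kg/day 1.57, 4.44 and 3.77 CPM, both overlapping vehicle. Litters at 900 mg/kg/day had 2.29 and 3.52 CPM, within the vehicle range and below all 600 mg/kg/day litters (log2 fold change of 900 against 600 -0.91 ± 0.43, adjusted p = 0.5081). From low to high the group means ordered as 900, vehicle, 100, 300 and 600 mg/kg/day, and the slope over dose was 0.04 ± 0.05 log2 per 100 mg/kg/day (adjusted p = 0.9999).

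Mrc1 encodes the mannose receptor CD206, an endocytic receptor of resident macrophages that some endothelial cells also carry, at chr17:77249187-77330858 on the plus strand. At 600 mg/kg/day it had 12.63, 14.15 and 14.61 CPM and at 300 mg/kg/day 13.43, 12.89 and 14.71 CPM, against 10.52, 11.45 and 12.34 CPM in vehicle litters. Both doses were above vehicle without overlap in CPM, by a small margin. The raw counts were 101, 91 and 79 at 600 mg/kg/day and 125, 105 and 98 at 300. In vehicle litters they were 106, 115 and 108, so the higher levels rest on the scaling to library totals. Its log2 fold change was 0.27 ± 0.25 at 600 mg/kg/day (adjusted p = 0.9505) and 0.26 ± 0.25 at 300 (adjusted p = 0.9995). It had 9.64 and 10.99 CPM at 900 mg/kg/day, overlapping vehicle and below every 600 mg/kg/day litter. At 100 mg/kg/day the litters were spread from 6.66 to 15.87 CPM, which are the lowest and the highest of all 14. Its group means had the same order as those of Cd68.

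Cd163, the scavenger receptor for haemoglobin bound to haptoglobin and the antigen of the rat antibody ED2, lies at chr4:157085093-157117879 on the plus strand. At 900 mg/kg/day it had 8 and 5 counts, or 0.96 and 0.43 CPM, against 3, 3 and 2 counts, or 0.30, 0.30 and 0.23 CPM, in vehicle litters. The 900 mg/kg/day litters were above the vehicle litters, all of which were at or below 3 counts, the floor used here. At 100 mg/kg/day it had 10, 0 and 10 counts and at 300 mg/kg/day 7, 4 and 0. When no filter on low counts was applied it could be fitted, and its log2 fold change was 1.29 ± 1.18 at 900 mg/kg/day (adjusted p = 0.8831) and 1.46 ± 1.08 at 100 (adjusted p = 1). These errors are about as large as the fold changes.

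Aif1 encodes IBA1, an actin-bundling protein of macrophages and microglia, at chr20:3646777-3652669 on the plus strand. It had the most counts of the 9 genes and the steadiest level. At 900 mg/kg/day it had 21.08 and 18.38 CPM, at 600 mg/kg/day 19.50, 22.85 and 17.38 CPM, and in vehicle litters 21.05, 17.72 and 21.15 CPM. The groups overlapped fully. For Aif1 the log2 fold change at 900 mg/kg/day was -0.02 ± 0.17, a fold of 0.987 with a 95% interval from 0.77 to 1.26, and at 600 mg/kg/day the interval of the fold was 0.798 to 1.25. Group means differed by a factor of 1.05 at most, so the order of the doses carried no difference beyond the spread between litters.

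Adgre1 encodes the adhesion receptor known in the mouse as F4/80, at chr9:2242474-2398001 on the plus strand. At 900 mg/kg/day it had 1.57 and 0.94 CPM, against 1.19, 0.20 and 0.46 CPM in vehicle litters. Vehicle litter 1, which lay with the 900 mg/kg/day litters on the first principal component, was between them, so the groups overlapped. This gene had a log2 fold change of 0.98 ± 0.77 with a 95% interval from -0.68 to 2.64 (adjusted p = 0.8517), the largest of the 8 genes at this dose. Values at 100 mg/kg/day were 1.57, 0.25 and 1.33 CPM, spread more widely than those of vehicle.

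C1qa encodes a chain of C1q, the complement component that tags debris and dying cells and is made largely by macrophages, at chr5:149133636-149136535 on the minus strand. At 900 mg/kg/day it had 0.96 and 1.98 CPM, against 2.08, 0.30 and 0.69 CPM in vehicle litters. Vehicle litter 1 had the highest value of all 14 libraries and vehicle litter 2 the lowest. C1qa had a log2 fold change of 0.53 ± 0.78 (adjusted p = 0.8674), and its sign was not stable when 1 litter was left out. C1qb, the partner chain with more counts, was at 2.54 ± 0.67 CPM at 900 mg/kg/day (SD, n = 2) and 2.09 ± 1.21 CPM in vehicle litters (SD, n = 3), with a log2 fold change of 0.26 ± 0.47 (adjusted p = 0.8836).

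Lyz2 encodes lysozyme, a bacterial cell wall enzyme made by macrophages and also by granulocytes, at chr7:52906811-52912107 on the minus strand. At 100 mg/kg/day it had 9.28, 8.76 and 4.79 CPM, against 3.57, 6.77 and 2.63 CPM in vehicle litters. A pair of the 100 mg/kg/day litters were above all others in the study, and the third was inside the vehicle range. The log2 fold change was 0.80 ± 0.33 (unadjusted p = 0.029, adjusted p = 0.9999). At 600 and 900 mg/kg/day the litters lay between 4.07 and 4.94 CPM, inside the vehicle range. Lyz2 was the member whose estimated counts lay over 0.01 from a whole number in some libraries, 5 of 14, and a share of reads with another lysozyme gene was not tested.

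Markers of other cells also varied among the 100 mg/kg/day litters. The 10 granulocyte and mast cell markers in the table summed to 25.2, 4.70 and 6.53 CPM at 100 mg/kg/day, against 6.95, 4.68 and 6.29 CPM in vehicle litters, with S100a9 alone at 20.2 CPM in 100 mg/kg/day litter 1. The 7 fetal liver markers summed to 14.5, 17.4 and 23.5 CPM at 100 mg/kg/day, against 9.43, 3.78 and 5.03 CPM in vehicle litters, with no overlap. Within this group, litter 1 had the highest Lyz2 and the highest granulocyte sum. The second litter with high Lyz2 had the lowest granulocyte sum, and the litter with the lowest Lyz2 had the highest liver sum. Over the 14 libraries Lyz2 had an r of 0.33 with the granulocyte sum and 0.35 with the liver sum. The part of these cells in the Lyz2 values was not tested.

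**Figure D2:**
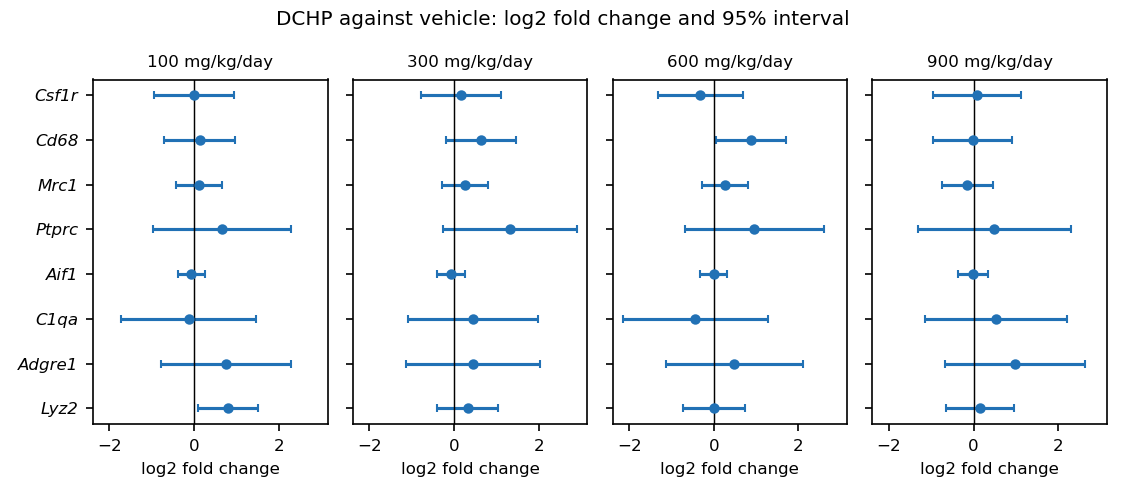
Log2 fold change of each tested macrophage gene against vehicle (horizontal axis) in the edgeR fit, with 1 panel for each dose in mg/kg/day and 1 line for each gene. Points are estimates and bars 95% intervals, not adjusted for the number of genes. The intervals of Aif1 are the narrowest and those of Ptprc, C1qa and Adgre1 the widest, and only Lyz2 at 100 and Cd68 at 600 mg/kg/day have an interval above 0.

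The estimated spread between litters of a group was above what counting gives for each gene, by different amounts. For Aif1 the coefficient of variation within groups was 9.78%, beside 7.94% from counting alone, and for Csf1r 32.8% beside 29.3%. For Mrc1 it was 20.0% beside 9.95%, for Cd68 30.9% beside 17.7% and for Lyz2 29.7% beside 15.2%. For C1qa it was 61.8% beside 33.5% and for Cd163 77.3% beside 46.2%. For Ptprc it was 56.6% beside 38.2% and for Adgre1 55.0% beside 36.9%. Aif1 and Csf1r were thus closest to counting error, while the other 7 genes differed more between litters given the same dose. No error was computed for these coefficients, so the small gaps of Aif1 and Csf1r are not shown to exceed counting error. Counting errors cover sampling of reads only.

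**Figure D3:**
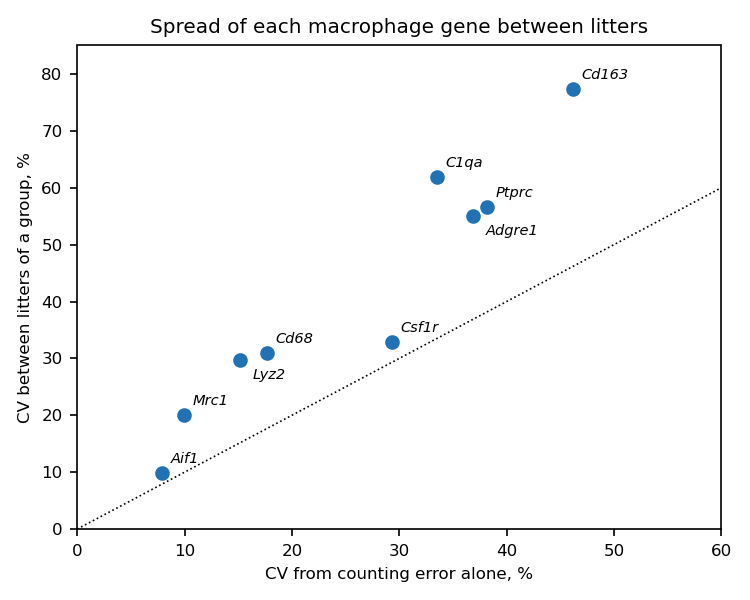
Coefficient of variation between litters of a group (vertical axis, %) against that expected from counting error alone (horizontal axis, %), with 1 point for each of the 9 macrophage genes. The dotted line marks equality. Aif1 and Csf1r lie near it, at 9.78% and 32.8% between litters, and the other genes lie above.

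Summed over the 9 genes the level was 42.6 ± 0.93 CPM in vehicle litters, 47.4 ± 6.40 at 100, 48.3 ± 4.21 at 300, 48.2 ± 2.41 at 600 (SD, n = 3 each) and 43.4 ± 0.44 CPM at 900 mg/kg/day (SD, n = 2). Every 300 and 600 mg/kg/day litter, at 44.6 to 52.9 CPM, was above every vehicle litter, at 42.0 to 43.7 CPM. The raw counts summed to 492, 363 and 316 at 300 mg/kg/day and 367, 326 and 259 at 600. In vehicle litters they summed to 423, 423 and 382, so this order too rests on the scaling. The 900 mg/kg/day litters, at 43.7 and 43.1 CPM, lay about the upper end of the vehicle range. Aif1 and Mrc1 make up most of this sum, which adds counts of probes with unequal efficiency, and no test was made of it.

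The macrophage genes were not seen to vary as 1 group across litters, though low counts limit this reading. Among the 28 pairs of the 8 tested genes Pearson's r of log2 CPM over 14 libraries had a median of -0.05, with 14 pairs above 0. The highest was 0.82, between Cd68 and Mrc1, and the lowest -0.44, between Mrc1 and Adgre1. C1qa and Adgre1 had an r of 0.46. Counting error alone was 29.3% to 38.2% for Csf1r, C1qa, Adgre1 and Ptprc and pulls their correlations toward 0. Aif1 varied little beyond its counting error. A shared pattern could therefore be missed. The libraries share doses and depth, and these values are descriptions with no test.

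Cd68 and Mrc1 followed the main axis of variation of the whole data set. Their r with the first principal component over the 14 libraries was 0.80 and 0.86, while that of Adgre1 was -0.66 and that of C1qa -0.53. Aif1 and Lyz2 had r values of -0.05 and -0.01. Vehicle litter 1, 100 mg/kg/day litter 1 and both 900 mg/kg/day litters, which lie at the low end of the axis, had the 4 lowest Mrc1 values of the study. The summed level of the 10 erythroid markers in the table was 18862 to 61542 CPM at 600 mg/kg/day, against 11523 to 37087 CPM in vehicle litters, and had an r of -0.10 with Cd68 and -0.18 with Mrc1. Csf1r had an r of -0.69 with the erythroid sum. What the axis stands for is not given by the labels, and its part in the Cd68 and Mrc1 values was not tested.

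**Figure D4:**
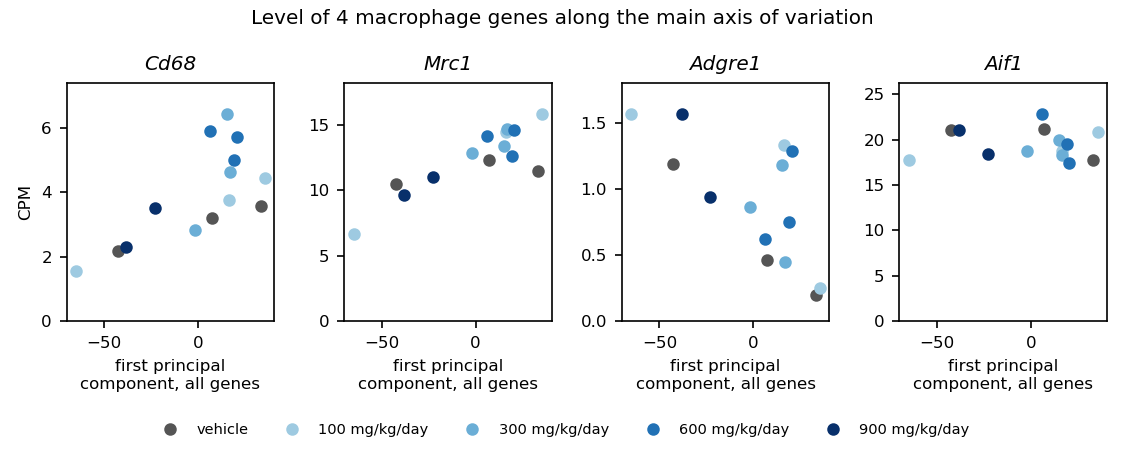
CPM of Cd68, Mrc1, Adgre1 and Aif1 (vertical axis, from 0) against the position of each library on the first principal component of all tested genes (horizontal axis, arbitrary units). Each point is 1 litter, coloured by dose. Cd68 and Mrc1 are higher toward the right (r = 0.80 and 0.86), Adgre1 is lower (r = -0.66), and Aif1 is level (r = -0.05).

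Without vehicle litter 1 and 100 mg/kg/day litter 1, many more genes passed in the whole table, 2102 of 12608 at 900 mg/kg/day against vehicle. Of the 8 macrophage genes 0 were among them. These litters lay with the 900 mg/kg/day litters on the first principal component of the same data. A higher count thus follows in part from the choice of litters, and no conclusion is drawn from it. Adgre1 then had a log2 fold change of 1.86 ± 0.91 at 900 mg/kg/day (adjusted p = 0.1482). C1qa had one of 1.58 ± 0.81 (adjusted p = 0.1791), and both were larger than with all libraries. Vehicle litter 1 had the highest vehicle level of both genes, at 1.19 and 2.08 CPM, so leaving it out raises these fold changes. These values depend on which litters are kept: without the second 900 mg/kg/day litter alone C1qa was at -0.09 on the log2 scale, and without vehicle litter 2 alone Adgre1 was at 0.56. Cd68 had 0.70 ± 0.33 at 600 mg/kg/day (adjusted p = 0.7605), and -0.93 ± 0.34 between 900 and 600 (adjusted p = 0.0744). Mrc1 between 900 and 600 mg/kg/day was at -0.44 ± 0.17 (adjusted p = 0.0993). Aif1 at 900 mg/kg/day was at -0.01 ± 0.17, and Lyz2 at 100 mg/kg/day at 0.50 ± 0.37.

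Other genes of macrophage function were read from 7 further lists with 85 symbols, of which 44 were tested. None passed at 100, 300 or 600 mg/kg/day, between 900 and 600, over the 5 groups or along dose, and 1 fell at 900 mg/kg/day. At an unadjusted p under 0.05 there were 3 of 44 at 100, 3 at 300, 2 at 600 and 2 at 900 mg/kg/day, beside 3.4%, 3.65%, 4.79% and 4.99% of all tested genes. The median log2 fold change at 900 mg/kg/day was 0.08, with 27 above and 17 below 0, beside 0.02 over all tested genes, of which 53.1% were above 0. The complement and Fc receptor list had 0 of 5 called at this dose, among them Fcer1g, the shared Fc receptor gamma chain, at -0.14 ± 0.33. The scavenger list had 0 of 6 called, among them Cd14, the lipopolysaccharide co-receptor, at 0.82 ± 0.38 (adjusted p = 0.8517) and Stab1, a scavenger receptor that endothelium also makes, at 0.17 ± 0.25. The lysosome and oxidase list had 0 of 6 called, with Ctss, a lysosomal protease, at 0.36 ± 0.38 and Lcp1, a leukocyte actin-binding protein, at 0.26 ± 0.22.

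Spi1, which encodes PU.1, was at 1.01 ± 0.75 CPM at 900 mg/kg/day (SD, n = 2) and 0.92 ± 0.33 CPM in vehicle litters (SD, n = 3), and its log2 fold change was 0.20 ± 0.58 (adjusted p = 0.9275). Runx1, another blood cell transcription factor, was at 0.07 ± 0.35. Of the growth factors and chemokines 0 of 9 passed at this dose, with Cx3cl1, the ligand of a monocyte receptor, at 0.39 ± 0.45 and Pf4, a platelet chemokine that resident macrophages also make, at -0.31 ± 0.18. Of the cytokines 0 of 7 passed, with Tgfb1 at 0.32 ± 0.16 and Il6 at -0.25 ± 0.73. Of the antigen presentation genes 0 of 6 passed, with the class II gene RT1-Da at -0.02 ± 0.69.

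The gene that fell was Cebpb, which encodes the transcription factor C/EBP beta, known in macrophages and also in Leydig cells. It had 25.8 and 28.8 CPM at 900 mg/kg/day, against 52.8, 92.0 and 65.8 CPM in vehicle litters. Both 900 mg/kg/day litters were below all others in the study. The log2 fold change was -1.36 ± 0.21 (adjusted p = 0.0211). The call was lost when vehicle litter 3 or either 900 mg/kg/day litter was left out, or when only the compared groups were fitted, and the log2 fold change stayed between -1.56 and -1.12 over 22 alternatives. At 600 mg/kg/day it had 36.0, 37.9 and 40.5 CPM, also below vehicle, with a log2 fold change of -0.88 ± 0.19 (adjusted p = 0.1678). The adjusted p at 600 mg/kg/day lay between 0.00126 and 0.598 over the same alternatives, 4 of which called it. Cebpb was also below every vehicle litter at 300 mg/kg/day (42.0, 38.3 and 38.9 CPM) and at 100 (33.1, 48.1 and 44.8 CPM). Its log2 fold change there was -0.82 and -0.74, and neither passed. Of all tested genes 5.98%, 9.34%, 11.0% and 19.2% did not overlap vehicle at 100, 300, 600 and 900 mg/kg/day. Leydig cell markers were lower in the 900 mg/kg/day litters, as described next, and which cells the Cebpb counts come from was not tested.

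Among the cell types that the pooled testes hold, fetal Leydig cell markers fell. The 8 markers summed to 1103 and 1343 CPM at 900 mg/kg/day, against 3915, 8108 and 5154 CPM in vehicle litters, and 5 of 8 fell at that dose. Insl3 made up most of each sum, at 775 and 915 CPM against 2275, 5869 and 3444 CPM in vehicle litters. It did not pass at that dose (log2 fold change -2.19). The sum adds counts of probes with unequal efficiency, and no test was made of it. Star, which moves cholesterol into mitochondria for steroid synthesis, had 45.5 and 47.5 CPM, against 343, 209 and 283 CPM in vehicle litters (log2 fold change -2.58 ± 0.28, adjusted p = 0.00275). The Star call was lost when either 900 mg/kg/day litter was left out, at an adjusted p of up to 0.0976. Without the first 900 mg/kg/day litter 0 of the 8 Leydig markers passed, without the second 1, and with only the compared groups fitted 2, while their median log2 fold change was -1.99, -2.2 and -2.2. The median log2 fold change at 900 mg/kg/day was -2.18 for the Leydig markers, 0.11 for the 8 macrophage genes and 0.03 for the 8 tested endothelial markers. It was 0.16 for the 7 tested Sertoli cell markers and 0.18 for the 5 tested germ cell markers, with 0 called in each list. At that dose the fold changes of the 8 macrophage genes ran from -0.15 to 0.98 on the log2 scale.

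**Figure D5:**
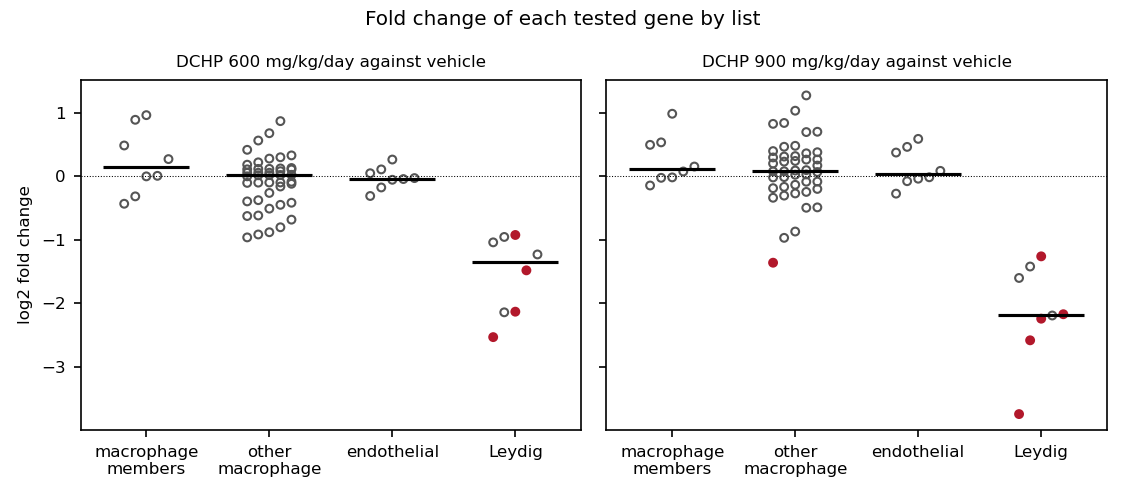
Log2 fold change against vehicle (vertical axis) of each tested gene at 600 and 900 mg/kg/day, by list. Each circle is 1 gene, filled red where it passed at an adjusted p under 0.05, and each bar is the list median. The macrophage and endothelial medians lie near 0 and the Leydig median at -2.18 at 900 mg/kg/day, and the red circle among the other macrophage genes is Cebpb.

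Most T and NK cell markers in the table had too few counts to be tested. The table held 7 T and NK cell markers, of which 1 was tested, Cd3d, a chain of the T cell receptor complex. The 7 markers summed to 3.70 to 8.88 CPM at 600 mg/kg/day, against 1.79 to 2.97 CPM in vehicle litters, without overlap, and had an r of 0.54 with Cd68. Cd3d had a log2 fold change of 1.14 ± 0.44 at 600 mg/kg/day (adjusted p = 0.9362). The 5 B cell markers in the table, of which 2 were tested, summed to 16.2 ± 2.30 CPM at 600 mg/kg/day and 20.7 ± 3.60 CPM in vehicle litters (SD, n = 3 each). Their sum had an r of -0.83 with Cd68 and -0.81 with Mrc1. It also had an r of -0.84 with the first principal component, the axis that Cd68 and Mrc1 followed at 0.80 and 0.86. The T and NK sum had an r of 0.40 with this axis. The 9 endothelial markers in the table summed to 426 to 434 CPM at 900 mg/kg/day, against 373 to 442 CPM in vehicle litters. The part of these cells in the Ptprc, Cd68 and Mrc1 values was not tested.

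Genes whose pattern over the litters was most like that of the macrophage genes were sought among 9372 named genes with a mean count of at least 20. Likeness was Pearson's r of log2 CPM with the mean of the standardised levels of the 8 tested genes over 14 libraries. The 10 most alike were Jchain, Crls1, Tmem160, Sdr39u1, Lgi1, Cadm1, Asb2, Parp10, Slc8a2 and Upk1b, with r from 0.806 to 0.751. With Spearman's correlation 2 of the 10 were again among the first 10, and with 1 library left out 2 to 10 were, with a median of 8. Taken gene by gene, Mrc1 was most like Thumpd3 (r = 0.967) and Cd68 most like Rab20 (r = 0.95). The others had r from 0.814, for Ptprc with Map3k8, to 0.883, for Aif1 with Col6a6. Over so many candidates and 14 libraries, values of this size describe the libraries only.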

How the data were processed

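Per the submitters' processing notes, STAR 2.7.8a, Partek and DESeq2 were used with the rat build rn7; which tool made which table is not given in the sources used here. The deposited table holds estimated counts for each gene and library, unadjusted for attenuation, 83.59% of them whole within 1e-09. A further deposited table holds log2 CPM of 11624 genes that the authors made from attenuation-adjusted counts; it was recomputed to within 1e-12 and listed 5 of the 9 members. Attenuation adjustment touched 16 genes, none of them a member.

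Estimated counts were rounded, and filterByExpr kept 12719 genes and left out 5455. After TMM scaling, a robust quasi-likelihood model in edgeR 4.0.16 (R 4.3.3) took in the 14 libraries and left 9 residual degrees of freedom, with a common biological coefficient of variation of 0.232, two-sided tests and Benjamini-Hochberg adjustment over all tested genes. A gene passed at an adjusted p under 0.05. Errors of fold changes are the larger of the quasi-likelihood and the Poisson Wald error. The slope over dose came from a separate fit. Log2 CPM for correlations used a prior count of 2. DESeq2 1.42.0 was an alternative. Litter numbers follow the labels' order and only name a litter.

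Named genes were all members, other list genes that passed or had one of the 3 smallest trend p of their list, and the genes most alike; S100a9 of the granulocyte list falls under the same rule. The 16 other lists held 168 symbols, and the table lacked 26. Members and lists were chosen with earlier results of these data known.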

Additional observations from a re-analysis of the deposited data

How the results depend on the processing

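The 48 fold changes and slopes of the 8 tested genes were recomputed under 22 alternatives, and 27 kept their sign under each alternative that gave a value. The other 21 changed sign at least once, among them values near 0 such as Aif1 at 600 mg/kg/day and larger ones: C1qa at 900 (0.53, with a range of -0.09 to 1.6), C1qa at 600 (-0.43, -0.87 to 0.64) and Csf1r at 600 (-0.32, -0.57 to 0.15). In 1 fit a member passed: with only the compared groups, Cd68 between 900 and 600 mg/kg/day, which made the count of members 1 in place of 0 (log2 fold change -0.94, adjusted p = 0.0467). In that fit 2143 of 11885 genes passed, against 0 with all groups. All other counts of members stayed at 0 among those with an adjusted p, but 29 of 1216 tests of a member had none: 4 in DESeq2 at 600 mg/kg/day, the others in fits that filtered out Ptprc, C1qa or Adgre1. Without vehicle litter 1 and 100 mg/kg/day litter 1, 39, 66 and 2102 genes passed at 300, 600 and 900 mg/kg/day, and 1494 along dose, against 6, 28, 32 and 54 with all libraries. DESeq2 called 26, 59, 86 and 119 with all libraries. Vehicle litter 1 and 100 mg/kg/day litter 1 lay with the 900 mg/kg/day litters on the first principal component of the same data. The higher counts without them follow in part from that choice. With each library left out in turn 0 to 9 passed at 300, 6 to 50 at 600, 0 to 50 at 900 mg/kg/day and 30 to 76 along dose, the 0 at 900 being without its first litter (339 at an unadjusted p under 0.05) and 9 without its second. With only the compared groups 4, 8 and 4 passed, and with size factors of the RLE kind 15 at 600. No paired analysis was possible because litters carry no numbers in the labels that would pair them. Low counts and the spread between litters limit Cd163, Ptprc, Adgre1 and C1qa, low counts Csf1r, and the 2 litters at 900 mg/kg/day limit that dose.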
